A study of Homo sapiens with 12 samples.

Results

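Glycolysis splits glucose into pyruvate and yields ATP and NADH, and the pentose phosphate pathway draws glucose phosphate off its upper part to make NADPH and ribose phosphate for nucleotides. Many of its steps have several isozymes, each from its own gene, and transporters at the cell surface carry glucose in and lactate out. Proliferating lymphoid cells are known for a high glycolytic rate with export of lactate. The genes described here are 31 named transporters, enzymes and regulators of these pathways, taken by symbol from a table of 13820 genes, of which 30 had a row. ALDOC, an aldolase gene, had none, and GAPDH was left out by the rule because its row holds very few counts. Of the 30, 29 passed the filter on low counts and were tested. PFKFB4, which encodes a regulator of phosphofructokinase, did not pass.

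The cells were of the established line Z-138, from mantle cell lymphoma, a B cell tumour defined by high cyclin D1. They carried either a control shRNA (labelled SCR) or an shRNA that knocks down SMARCA4, which encodes a motor subunit of the SWI/SNF remodellers of chromatin. Each was grown with doxycycline and given DMSO, or 3 µM ibrutinib (an inhibitor of the kinase BTK) with 3 µM venetoclax (an inhibitor of BCL2), here called the drugs. This made 4 groups of 3 libraries: control shRNA in DMSO, SMARCA4 shRNA in DMSO, control shRNA under the drugs and SMARCA4 shRNA under the drugs. Doxycycline was common to all of them. Each shRNA goes with its own construct, so loss of SMARCA4 and anything else that construct does cannot be told apart. The labels give neither the length of the drug exposure, nor the number of constructs or clones, nor whether replicates were separate cultures. The p-values therefore measure the spread between these libraries, which may be technical.

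RNA was measured by sequencing the 3′ ends of transcripts, so a count does not scale with transcript length and says nothing of splice isoforms that share a 3′ end. Levels are in CPM, counts scaled to library size, after TMM scaling, which corrects each library total for composition, and differences are log2 fold changes with a standard error (SE). A gene "rose" or "fell" where the adjusted p of edgeR's quasi-likelihood test, taken over all 12602 genes tested, was under 0.05. Totals ran from 7279503 to 10151679 counts in 11 libraries, and SMARCA4 shRNA in DMSO replicate 3 had 22528537. As a check of the shRNA, SMARCA4 had a log2 fold change of -1.77 in DMSO and -1.80 under the drugs (SE 0.06 each), and its libraries did not overlap. Cyclin D1 (CCND1) stood at 3554 to 4478 CPM and SOX11 at 336 to 647 CPM in the group means. Of 10 markers of this lymphoma and of B cells 8 had a row (not CD22 and CD5). With knockdown 6 fell and 1 rose in DMSO, where 16.2% of all genes tested fell and 15.1% rose. Under the drugs 5 fell and 1 rose, against 16.3% and 14.8% of all genes. The summed level of these 8 markers, most of it CCND1, was 4928 to 5763 CPM in the control and 4195 to 4901 CPM in the SMARCA4 shRNA libraries. In bulk RNA, fewer cells of a type and less RNA per cell cannot be told apart. No monocyte or erythroid marker of those listed had a row. Of 8 T and NK cell markers 3 had a row, and their summed level was 17.5 to 21.4 CPM in the control shRNA libraries and 1.75 to 3.54 CPM in the SMARCA4 shRNA libraries. Most of that sum was the single gene CD3G. Its group means were 15.8 CPM (DMSO) and 16.5 CPM (drugs) in control and 1.64 and 1.90 CPM in knockdown cells. The 1 fibroblast or epithelial marker of 6 with a row, COL1A1, ran from 19.6 to 25.99 CPM in control and from 14.2 to 15.1 CPM in SMARCA4 shRNA libraries. Ribosomal RNA rows took 11.8% ± 0.263 (SD, n = 3) and 13.0% ± 0.614 of counts in DMSO, control before knockdown, and 13.4% ± 0.298 and 10.9% ± 1.17 under the drugs. These marker and ribosomal RNA levels move with the shRNA or the drugs, and their part in the results below was not tested.

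With SMARCA4 knocked down, most of the members tested were lower. The members were chosen with earlier results of these data known, and further genes of these pathways, given below, changed both ways. In DMSO, 20 of 29 members fell, 1 rose and 8 did not pass, where 16.2% of all genes tested fell and 15.1% rose (31.3% in all). Under the drugs, 18 fell, 1 rose and 10 did not pass, against 16.3% and 14.8% of all genes (31.1% in all). All 18 were among the 20. HK1 and PGAM1 made the difference. The median log2 fold change of the members was -0.32 in DMSO and -0.27 under the drugs, and the median over all genes was 0.00 in both. The 3 knockdown libraries lay wholly below the 3 control libraries in DMSO in 20 members and wholly above in 3, where 21.5% and 21.4% of all genes did so (42.9% either way). Under the drugs these were 18 and 1 members, against 21.2% and 19.8% (41.0% either way). Most falls were shallow: outside SLC16A3, those in DMSO lay between -0.22 and -0.86. With library totals in place of TMM scaling, 13 members fell under the drugs in place of 18. The 30 members together took 0.512% ± 0.0135 (SD, n = 3) of all counts in control cells in DMSO and 0.421% ± 0.00728 in knockdown cells, and 0.477% ± 0.0146 and 0.421% ± 0.00998 under the drugs. These totals include the ribosomal RNA rows, whose share differs by group. Without those rows the libraries ran from 0.570 to 0.596% (control) and 0.478 to 0.492% (knockdown) in DMSO. Under the drugs they ran from 0.538 to 0.567% and 0.463 to 0.482%.

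**Figure D1:**
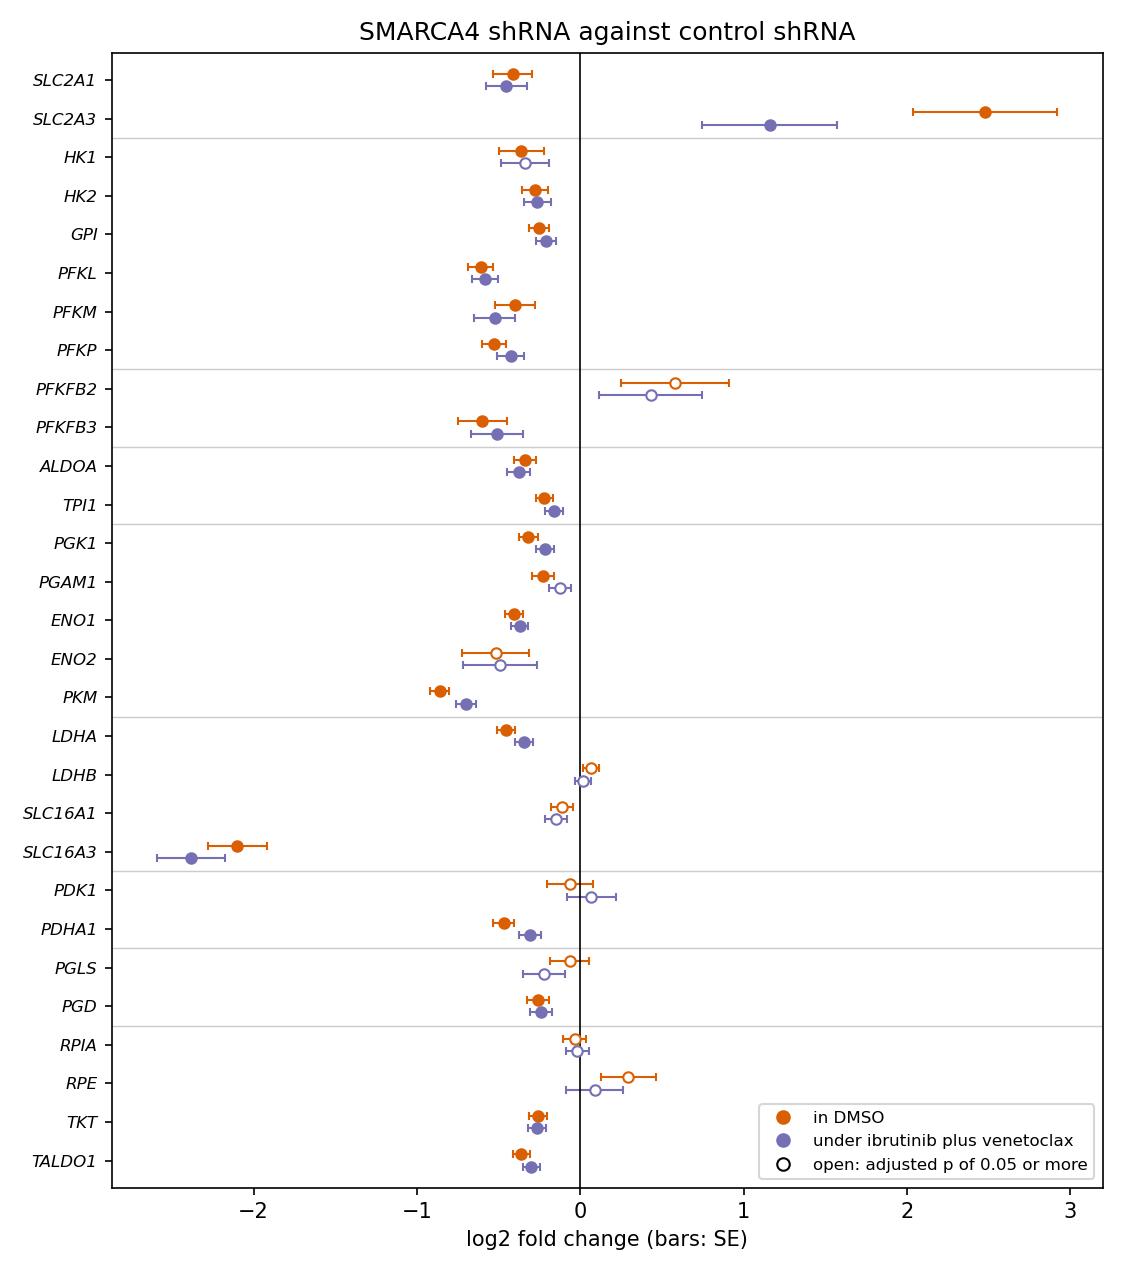
Log2 fold change of SMARCA4 shRNA against control shRNA (x axis, bars are the SE) for the 29 members tested (y axis, grouped by role from uptake at the top to the pentose phosphate steps at the bottom), in DMSO and under ibrutinib plus venetoclax. Filled points passed the adjusted p threshold of 0.05: 20 lower and 1 higher in DMSO, 18 lower and 1 higher under the drugs.

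At the entry of the pathway stand 2 glucose transporter genes. SLC2A1 encodes GLUT1, the widespread basal glucose transporter. It stood at 14.7, 14.1 and 17.8 CPM in control and 11.7, 11.6 and 11.6 CPM in knockdown cells in DMSO, and at 15.2, 16.5 and 15.2 against 10.1, 12.4 and 11.6 CPM under the drugs. The knockdown libraries were the lower ones in both, with no overlap. Its log2 fold changes were -0.41 (SE 0.12, adjusted p = 0.00723) in DMSO and -0.45 (SE 0.13, adjusted p = 0.00643) under the drugs. The first call ended without control shRNA in DMSO replicate 3 (-0.30, adjusted p = 0.0843).

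SLC2A3 encodes GLUT3, a transporter of high glucose affinity, and was the 1 member that rose. Its raw counts were 3, 6 and 3 in control and 20, 24 and 63 in knockdown libraries in DMSO, the last in the deepest library. On the CPM scale that was 0.300, 0.725 and 0.358 against 2.19, 2.61 and 2.79, so every knockdown library was above every control library. The fitted log2 fold change was 2.48 (SE 0.44, adjusted p = 4.70e-05). From the summed counts, 107 against 12, the ratio was 5.81, with an exact 95% interval of 3.19 to 11.6 that covers counting error only. Under the drugs the counts were 10, 2 and 12 against 19, 12 and 24, and the CPM ranges overlapped. It rose by 1.16 there (SE 0.41, adjusted p = 0.0319). That call ended without control replicate 2 (0.74, adjusted p = 0.187), knockdown replicate 1 (1.07, adjusted p = 0.0930), knockdown replicate 3 (0.99, adjusted p = 0.124) or with the DESeq2 Wald test (1.17, adjusted p = 0.0533). This gene passed the filter only through the knockdown libraries, so it had to be higher there, and its rise supports nothing about the members as a group. Its near-identical copy SLC2A14 had no row under that symbol, so how reads were divided between them is uncertain.

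In the first steps, which trap glucose and commit it to glycolysis, all 6 members fell in DMSO and 5 under the drugs. Of all genes tested, 16.2% and 16.3% fell. Hexokinase phosphorylates glucose, and the genes of both its common isozymes were lower. HK2, the inducible isozyme, went from 35.3 ± 1.04 to 29.02 ± 1.36 CPM (SD, n = 3) in DMSO and from 37.8 ± 2.05 to 31.6 ± 1.20 CPM under the drugs. These are changes of -0.28 and -0.26 (SE 0.08 each). Under the drugs the call ended without control replicate 1 (-0.22, adjusted p = 0.0836) or with library totals (-0.18, adjusted p = 0.1002). HK1, the constitutive isozyme, fell by 0.36 in DMSO (SE 0.14, adjusted p = 0.0430) and had -0.34 (adjusted p = 0.0834) under the drugs. The HK1 call in DMSO was lost when any 1 of 4 libraries was left out: control replicate 1 (-0.40, adjusted p = 0.0561), replicate 2 (-0.31, adjusted p = 0.153) or replicate 3 (-0.35, adjusted p = 0.0883), or knockdown replicate 3 (-0.20, adjusted p = 0.375). It was also lost with library totals (-0.34, adjusted p = 0.0651), with DESeq2 (-0.35, adjusted p = 0.102) and with the deepest library thinned (-0.36, adjusted p = 0.0626). Under the drugs HK1 passed without knockdown replicate 1 (-0.48, adjusted p = 0.0255).

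GPI, which turns glucose phosphate into fructose phosphate, was 202, 172 and 197 CPM in control and 166, 158 and 155 CPM in knockdown libraries in DMSO. Its fall was small, -0.25 (SE 0.06), and the groups did not overlap. Under the drugs it was -0.21 (SE 0.06, adjusted p = 0.0109). The call there was lost without control replicate 3 (-0.18, adjusted p = 0.0628) or knockdown replicate 1 (-0.15, adjusted p = 0.104), and with library totals (-0.13, adjusted p = 0.107).

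All 3 phosphofructokinase subunit genes fell in both comparisons. This enzyme catalyses the committed step, and its liver, muscle and platelet subunits mix into tetramers. PFKL, the liver subunit, read 68.2, 75.7 and 75.9 CPM in control and 51.2, 49.8 and 44.0 CPM in knockdown cells in DMSO. It read 78.4, 71.6 and 85.0 against 49.1, 52.9 and 54.9 CPM under the drugs. No knockdown library reached the lowest control library in either treatment. The falls were 0.61 (SE 0.08, adjusted p = 1.52e-07) and 0.58 (SE 0.08, adjusted p = 6.17e-07), which left 65.5% and 66.8% of the control level. PFKP, the platelet subunit, stood at 55.7, 51.8 and 54.9 CPM against 40.1, 37.5 and 35.7 CPM in DMSO and fell by 0.53 (SE 0.08), and by 0.43 (SE 0.08) under the drugs. PFKM, the muscle subunit, had -0.40 (SE 0.12, adjusted p = 0.0112) with overlapping libraries in DMSO and -0.53 (SE 0.13, adjusted p = 0.00168) without overlap under the drugs. Its DMSO call ended without control replicate 3 (-0.26, adjusted p = 0.142) or knockdown replicate 2 (-0.31, adjusted p = 0.0728).

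Of the genes that tune phosphofructokinase through its fructose bisphosphate activator, PFKFB3 alone passed, PFKFB2 did not and PFKFB4 was not tested. PFKFB3, the isozyme that favours synthesis of the activator, fell from 13.8 ± 1.01 to 9.19 ± 1.02 CPM (SD, n = 3) in DMSO, a change of -0.60 (SE 0.15, adjusted p = 0.00210). Drug-treated libraries read 17.0, 11.1 and 12.4 against 7.61, 9.43 and 11.3 CPM, the highest knockdown library lying above the lowest control library. It had -0.51 there (SE 0.16, adjusted p = 0.0138), and the call was lost without control replicate 1 (-0.31, adjusted p = 0.189) or knockdown replicate 1 (-0.38, adjusted p = 0.105). PFKFB2, a second isozyme, did not pass, at 0.58 (SE 0.33, adjusted p = 0.195) and 0.43 (SE 0.31, adjusted p = 0.325), though its knockdown libraries lay above the control libraries in both. PFKFB4, not tested, had counts of 5, 1 and 0 in control and 9, 10 and 20 in knockdown libraries in DMSO. Its summed counts of 39 against 6 gave a ratio of 4.24, with an exact 95% counting interval of 1.78 to 12.2. Under the drugs the counts were 1, 4 and 8 in control and 18, 7 and 7 in knockdown libraries, and the CPM ranges overlapped. The summed counts there, 32 against 13, gave 2.41, interval 1.23 to 5.01. Both intervals cover counting error only and leave out the spread between libraries.

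The triose steps fell together. ALDOA encodes aldolase A, which cleaves the six-carbon sugar, and read 553, 507 and 522 CPM in control and 442, 394 and 413 CPM in knockdown cells in DMSO. It read 446, 433 and 517 against 353, 402 and 319 CPM under the drugs, again with no overlap. It fell by 0.34 (SE 0.07, adjusted p = 0.000178) and by 0.38 (SE 0.07, adjusted p = 6.27e-05). TPI1, triose phosphate isomerase, fell by 0.22 (SE 0.05) in DMSO, from 388 ± 6.47 to 333 ± 4.94 CPM (SD, n = 3). Under the drugs it had -0.16 (SE 0.05, adjusted p = 0.0177). That call ended without control replicate 3 (-0.12, adjusted p = 0.1004), knockdown replicate 1 (-0.14, adjusted p = 0.0751) or knockdown replicate 2 (-0.12, adjusted p = 0.109), in the fit of the 2 groups alone (-0.16, adjusted p = 0.0506) and with library totals (-0.08, adjusted p = 0.251). A gene on the opposite strand, SPSB2, spans the 3′ end of TPI1 in the GENCODE annotation, with 481 counts over all libraries against 41464.

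The lower steps, which yield ATP, held the deepest fall among the abundant members. PKM encodes muscle pyruvate kinase, which makes pyruvate and ATP in the last step, and its splice isoforms share the 3′ end that was counted. It read 652, 591 and 551 CPM in control and 325, 339.8 and 323 CPM in knockdown cells in DMSO. Drug-treated libraries read 479.9, 488 and 469 CPM in control and 298, 319.5 and 267 CPM in knockdown cells. The 6 knockdown libraries all lay below the 6 control libraries, and the control libraries under the drugs lay between. PKM fell by 0.86 (SE 0.06, adjusted p = 4.85e-13) in DMSO and by 0.70 (SE 0.06, adjusted p = 9.80e-11) under the drugs, which left 55.0% and 61.6% of the control level.

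ENO1, the common enolase gene, read 701, 641 and 688 CPM in control and 531, 515 and 489 CPM in knockdown cells in DMSO. It read 631, 619 and 700.2 against 491, 499.5 and 516 CPM under the drugs, without overlap in either. It fell by 0.41 (SE 0.05, adjusted p = 4.13e-07) and by 0.37 (SE 0.05, adjusted p = 2.19e-06). ENO2, the neuronal enolase gene, was far scarcer at 5.34 ± 0.943 against 3.82 ± 0.548 CPM (SD, n = 3) in DMSO, and its -0.52 (SE 0.21, adjusted p = 0.0533) did not pass. With limma-voom it passed (-0.55, adjusted p = 0.0327). PGK1, whose product makes the first ATP of the lower steps, fell by 0.32 (SE 0.06) in DMSO and by 0.22 (SE 0.06) under the drugs. With library totals PGK1 missed the threshold under the drugs (-0.13, adjusted p = 0.0694). PGAM1, phosphoglycerate mutase, fell by 0.23 (SE 0.07, adjusted p = 0.00804) in DMSO and had -0.12 (SE 0.07, adjusted p = 0.184) under the drugs, with an interaction of 0.11 (adjusted p = 0.974). Its DMSO call ended without control replicate 1 (-0.16, adjusted p = 0.109) or knockdown replicate 2 (-0.19, adjusted p = 0.0586).

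**Figure D2:**
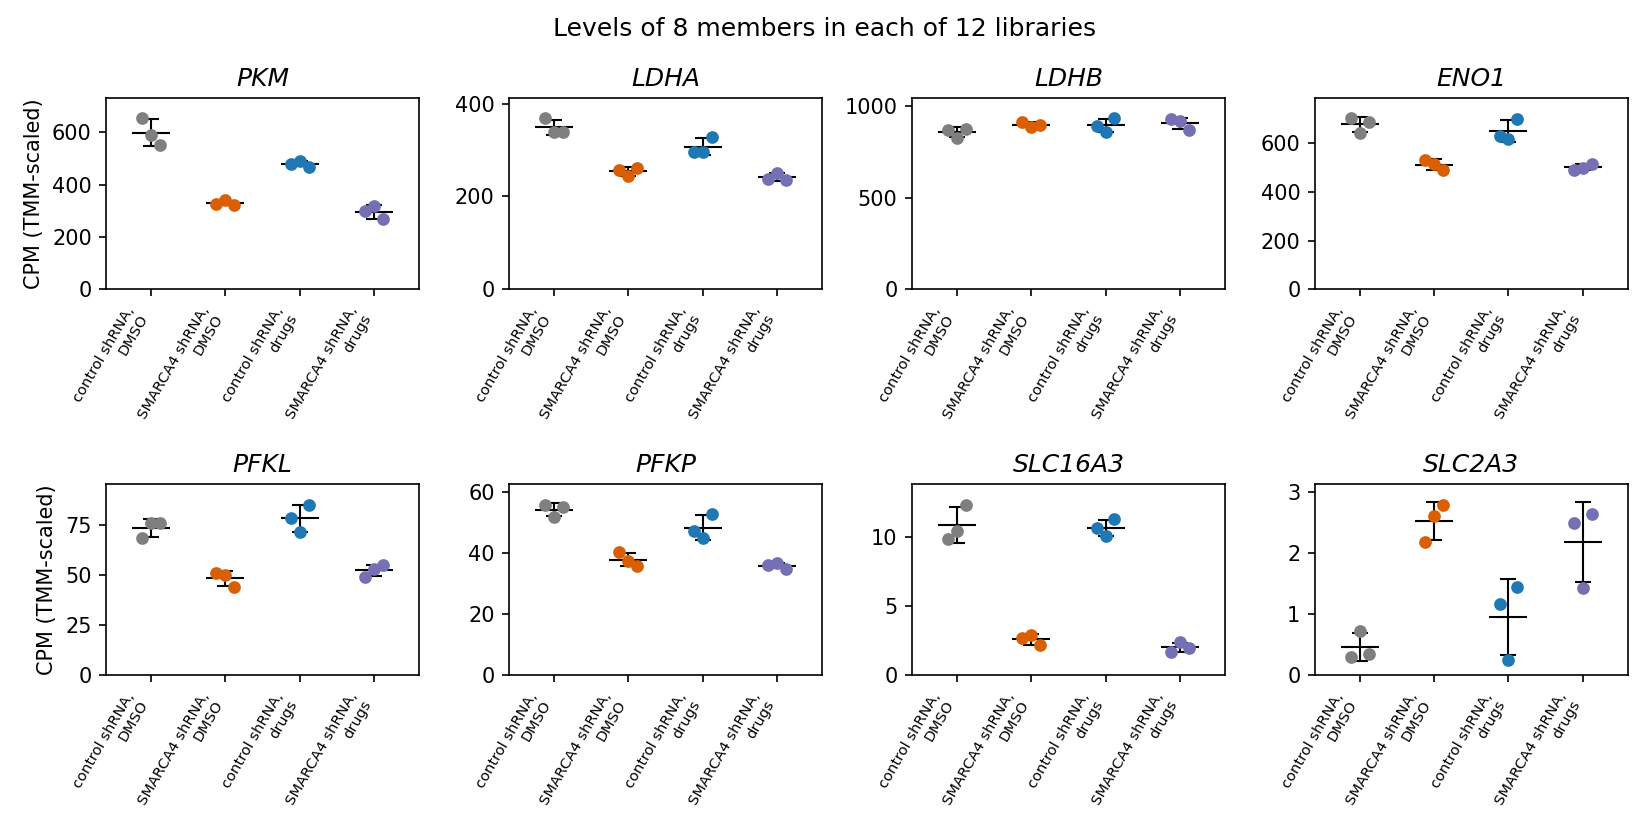
Levels in TMM-scaled CPM (y axis, starting at 0) of 8 members in the 12 libraries, 3 per group (x axis). Points are libraries, the horizontal mark is the group mean and the bars are the SD. PKM was 551 to 652 CPM in control and 323 to 339.8 CPM in knockdown libraries in DMSO, while LDHB was 829 to 877 and 887 to 914 CPM.

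Lactate dehydrogenase interconverts pyruvate and lactate, and its A and B subunits assemble into mixed tetramers. The A form favours lactate production and the B form its use. LDHA read 368, 340.1 and 338 CPM in control and 258, 244 and 262 CPM in knockdown cells in DMSO, and 296, 297 and 329 against 238, 251 and 236 CPM under the drugs. It fell by 0.45 (SE 0.05, adjusted p = 8.25e-08) and by 0.35 (SE 0.06, adjusted p = 1.23e-05). LDHB read 872, 829 and 877 CPM in control and 914, 887 and 897 CPM in knockdown cells in DMSO. The knockdown libraries were slightly above the control libraries, but the difference of 0.07 in log2 (SE 0.05, adjusted p = 0.326) did not pass, and under the drugs the difference was 0.02 (SE 0.05, adjusted p = 0.823) with overlap.

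The ratio of LDHA to LDHB counts within a library was examined after these values were seen. It was 0.422, 0.410 and 0.386 in control and 0.282, 0.275 and 0.292 in knockdown libraries in DMSO. It was 0.331, 0.345 and 0.352 against 0.256, 0.272 and 0.271 under the drugs. The lowest ratio of a control library in either treatment was above the highest of its knockdown counterparts. Within each shRNA the ratio was also lower under the drugs than in DMSO, with no overlap. The mean log2 difference was -0.52 for knockdown in DMSO, -0.36 for knockdown under the drugs, -0.24 for the drugs in control cells and -0.09 for the drugs in knockdown cells. Since the ratio was chosen for its values, these are given as a description with no test.

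The monocarboxylate transporter genes, which carry lactate and pyruvate across the membrane, parted as well. SLC16A3 encodes MCT4, the exporter of strongly glycolytic cells. Its counts were 98, 86 and 103 in control and 25, 27 and 49 in knockdown libraries in DMSO, or 9.80, 10.4 and 12.3 against 2.73, 2.93 and 2.172 CPM. With the drugs it read 10.6, 10.1 and 11.2 against 1.71, 2.39 and 1.98 CPM. The changes of -2.10 (SE 0.18, adjusted p = 6.84e-11) and -2.38 (SE 0.21, adjusted p = 9.47e-11) left 23.3% and 19.2% of the control level, further from 0 than any other member that fell. CSNK1D, a kinase gene on the opposite strand, spans the 3′ end of SLC16A3 in the GENCODE annotation and had 10346 counts over all libraries against 701. Its own log2 fold changes were 0.00 (SE 0.06, adjusted p = 0.969) and 0.10 (SE 0.06, adjusted p = 0.279). The strand setting of the counting is not given in the sources used here, so reads of the pair cannot be told apart by strand. SLC16A1, which encodes the widely expressed transporter MCT1, had -0.11 (SE 0.07, adjusted p = 0.207) and -0.15 (SE 0.07, adjusted p = 0.102) and passed in neither. Under the drugs it passed without control replicate 1 (-0.20, adjusted p = 0.0467) or knockdown replicate 3 (-0.20, adjusted p = 0.0369).

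Promoter sequence is shown for 4 members that contrast in these comparisons, PKM and SLC16A3 as the deepest falls and LDHA beside LDHB as a pair that parted. Each line holds the 250 bases before the RefSeq gene start in GRCh38.p14, 5′ to 3′ on the gene's strand. PKM lies at chr15:72231191-72231440 (minus strand), SLC16A3 at chr17:82228185-82228434 (plus), LDHA at chr11:18394313-18394562 (plus) and LDHB at chr12:21657843-21658092 (minus). Capitals mark ACGTG, the core of the hypoxia response element, and GGGCGG, the GC box bound by SP factors, on either strand. CACGTG, the E-box bound by MYC and MAX, holds ACGTG and is therefore also in capitals.
PKM: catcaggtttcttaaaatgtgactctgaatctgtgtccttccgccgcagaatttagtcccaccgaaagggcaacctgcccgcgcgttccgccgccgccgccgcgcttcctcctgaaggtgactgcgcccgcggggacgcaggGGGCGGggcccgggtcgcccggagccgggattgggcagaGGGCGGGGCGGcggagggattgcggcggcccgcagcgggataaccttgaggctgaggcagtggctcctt
SLC16A3: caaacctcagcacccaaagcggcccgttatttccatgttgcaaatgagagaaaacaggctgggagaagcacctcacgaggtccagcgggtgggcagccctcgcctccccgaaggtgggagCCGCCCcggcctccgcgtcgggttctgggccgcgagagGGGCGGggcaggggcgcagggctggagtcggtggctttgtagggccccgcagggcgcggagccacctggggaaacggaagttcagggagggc
LDHA: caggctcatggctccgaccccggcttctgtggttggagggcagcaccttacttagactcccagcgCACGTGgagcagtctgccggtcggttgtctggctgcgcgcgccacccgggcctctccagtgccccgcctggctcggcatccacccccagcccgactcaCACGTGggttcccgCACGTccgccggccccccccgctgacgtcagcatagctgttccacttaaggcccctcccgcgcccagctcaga
LDHB: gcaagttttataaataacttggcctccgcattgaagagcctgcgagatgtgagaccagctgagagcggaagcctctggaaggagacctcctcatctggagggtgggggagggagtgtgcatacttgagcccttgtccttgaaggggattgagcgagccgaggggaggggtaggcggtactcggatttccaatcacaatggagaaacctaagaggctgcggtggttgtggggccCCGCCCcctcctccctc
The LDHA stretch holds ACGTG at 3 places, 2 of them the full E-box, and no GGGCGG. The PKM stretch holds GGGCGG at 2 places, the second a pair of overlapping matches, and SLC16A3 also has 2 places. LDHB has 1. None of those 3 has ACGTG there. Windows of 300 bases, which add 50 bases past the start, were found for 28 of the 31 members. The bases after the start matched a GENCODE transcript of the gene in 22 of them. ACGTG was in 8 of the 28 (28.6%) and in 6 of the 20 that fell in DMSO (30%), against 21.4% of all 35116 promoters of this length. CACGTG was in 2 (7.14%) against 7.26%. GGGCGG was in 23 (82.1%), and in 16 of the 20 that fell (80%), against 45% of all promoters. These matches describe letters in a window and were not tested. The set of all promoters was neither limited to genes tested here nor matched to the members in GC content. The 28 windows include those of ALDOC and PFKFB4, which were not among the members tested for expression.

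At the entry of pyruvate into mitochondria, PDHA1 was lower and PDK1 did not pass. PDHA1 encodes the catalytic subunit of pyruvate dehydrogenase. It read 112, 114 and 101 CPM in control and 82.5, 78.3 and 76.7 CPM in knockdown cells in DMSO, and 106, 99.6 and 100.2 against 85.3, 75.9 and 86.4 CPM under the drugs. It fell by 0.47 (SE 0.06, adjusted p = 9.37e-07) and by 0.31 (SE 0.07, adjusted p = 0.000603), with no overlap in either. PDK1, a kinase that inactivates this enzyme, had -0.07 (SE 0.14, adjusted p = 0.767) and 0.07 (SE 0.15, adjusted p = 0.781). MAP3K15 on the opposite strand spans the 3′ end of PDHA1 in the GENCODE annotation, with 86 counts over all libraries against 10706.

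In the pentose phosphate pathway 3 of 6 members fell in each comparison, and the other 3 did not pass. Of all genes tested, 16.2% fell in DMSO and 16.3% under the drugs. PGD, an NADPH-producing dehydrogenase, was lower by 0.26 (SE 0.06, adjusted p = 0.00233) in DMSO and by 0.24 (SE 0.07, adjusted p = 0.00618) under the drugs. Its calls ended without knockdown replicate 3 in DMSO (-0.19, adjusted p = 0.0517), and without control replicate 3 (-0.16, adjusted p = 0.0854) or with library totals (-0.16, adjusted p = 0.0674) under the drugs. TKT, transketolase, which passes two-carbon units between sugars, read 295, 273 and 261 CPM in control and 233, 229 and 231 CPM in knockdown cells in DMSO. The fall was 0.26 (SE 0.05, adjusted p = 0.000358), and 0.27 (SE 0.06, adjusted p = 0.000328) under the drugs. TALDO1, transaldolase, its partner in the sugar exchange, read 287, 277 and 275 against 221, 216 and 217 CPM, and fell by 0.36 (SE 0.05, adjusted p = 1.81e-06), and by 0.30 (SE 0.05, adjusted p = 4.21e-05) under the drugs. Neither gene's groups overlapped in either treatment. RPIA, which makes ribose phosphate, had -0.04 (SE 0.07, adjusted p = 0.738) and -0.02 (SE 0.07, adjusted p = 0.879). PGLS, a lactonase of the oxidative branch, had -0.07 (SE 0.12) and -0.22 (SE 0.13, adjusted p = 0.201), and passed under the drugs without knockdown replicate 2 (-0.37, adjusted p = 0.0479). RPE, an epimerase, had 0.29 (SE 0.17, adjusted p = 0.193) and 0.09 (SE 0.17). Its 3′ end is spanned by KANSL1L on the opposite strand, which itself rose by 0.45 (SE 0.12, adjusted p = 0.00333) in DMSO.

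Of the 20 falls in DMSO, 15 held under all alternative settings that gave a value, and of the 18 under the drugs 12 did. PFKL, PFKP, ALDOA, ENO1, PKM, LDHA, SLC16A3, PDHA1, TKT and TALDO1 are the 10 genes in both sets. The heat map sets each library against the control DMSO mean, so the libraries under the drugs carry shifts with the drugs as well. Of 26 members with a mean of at least 5 CPM, 22, 24 and 23 were below the control DMSO mean in the knockdown libraries in DMSO, and 23, 23 and 24 in those under the drugs. In the control libraries under the drugs the numbers were 18, 20 and 11, and in the control libraries in DMSO, which make up that mean, 9, 18 and 13. The share of all genes below their own control DMSO mean was not computed, so these numbers only describe the libraries.

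**Figure D3:**
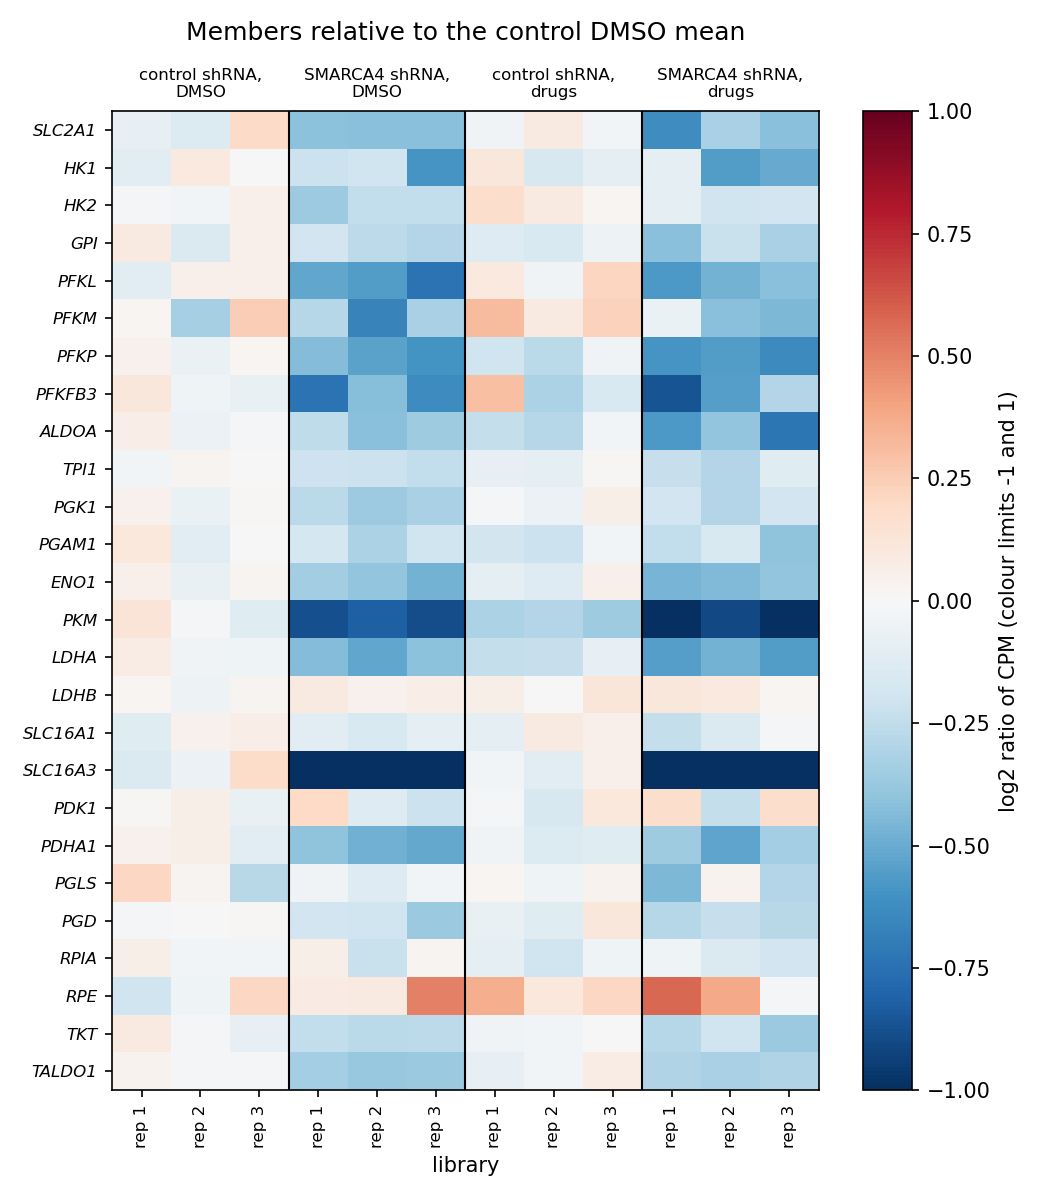
Log2 ratio of CPM to the control DMSO mean (colour, limits -1 and 1, lower in blue) for 26 members with a mean of at least 5 CPM (rows) in the 12 libraries (columns). The SMARCA4 shRNA libraries have 22 to 24 members below the control DMSO mean (the share over all genes was not computed), and SLC16A3 and PKM are darkest.

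The drugs alone moved few of these genes. In control cells, 1 of 29 members fell (PKM) and 0 rose, where 0.555% of all genes fell and 0.738% rose (1.29% in all). PKM went from 598 ± 51.1 to 479 ± 9.89 CPM (SD, n = 3), with no overlap, and fell by 0.32 (SE 0.06, adjusted p = 0.00133), which left 80.1% of the DMSO level. LDHA had -0.18 (SE 0.06, adjusted p = 0.115), also without overlap between libraries, and ALDOA had -0.18 (SE 0.07, adjusted p = 0.298). Without control under the drugs replicate 3, both passed (LDHA -0.24, adjusted p = 0.0278; ALDOA -0.27, adjusted p = 0.0421), and with library totals LDHA passed (-0.21, adjusted p = 0.0364). In 3 members the drug libraries lay wholly below the DMSO libraries, which 7.18% of all genes did, and in 0 wholly above, which 7.38% did (14.6% either way). The median of the members was -0.02 and that of all genes 0.00. One of the control libraries under the drugs, replicate 1, was assigned by its column name through elimination. Without it PKM was again the 1 member called (-0.33, adjusted p = 0.00937).

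In knockdown cells, 0 of 29 members passed for the drugs with edgeR, as with DESeq2 and limma-voom, and 2 had an unadjusted p under 0.05. Of all genes, 1.29% passed (0.738% higher and 0.548% lower). In HK2 and TALDO1 the drug libraries lay wholly above the DMSO libraries, with 0.11 (SE 0.08) and 0.05 (SE 0.05), and in PKM wholly below, where 7.76% and 7.45% of all genes did so (15.2% either way). PKM read 325, 339.8 and 323 CPM in DMSO and 298, 319.5 and 267 CPM under the drugs. All 3 drug libraries were the lower ones, but the difference of -0.16 (SE 0.06, adjusted p = 0.295) did not pass. ALDOA had -0.22 (SE 0.07, adjusted p = 0.143) and passed without knockdown under the drugs replicate 2 (-0.31, adjusted p = 0.0126). The drug comparisons share their DMSO or drug libraries with the knockdown comparisons, and their values are given side by side for that reason only.

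**Figure D4:**
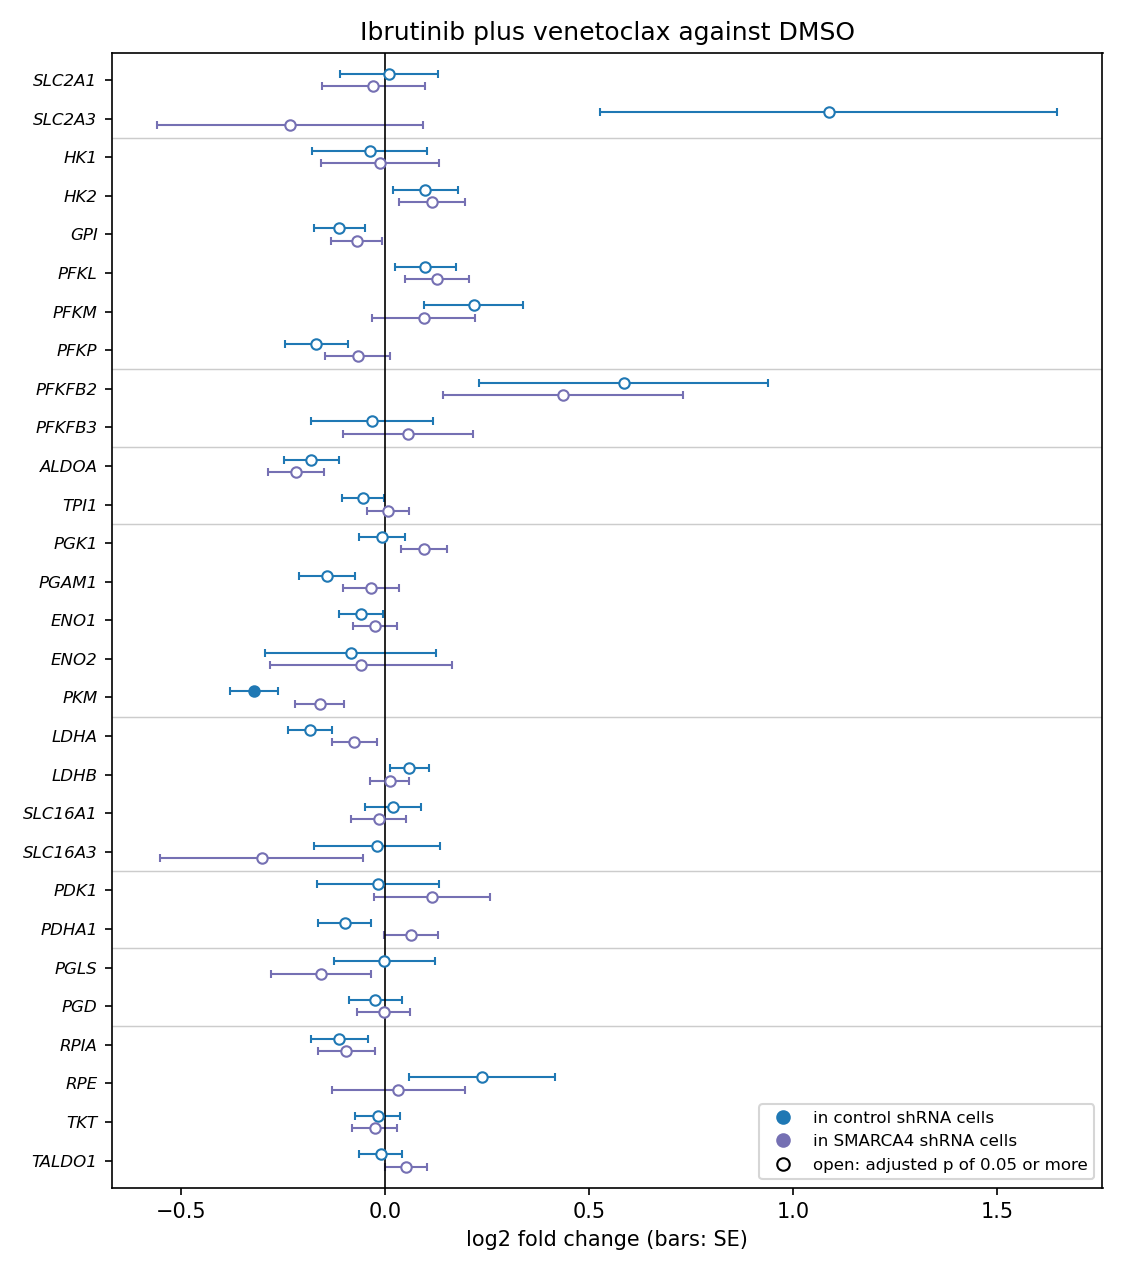
Log2 fold change of ibrutinib plus venetoclax against DMSO (x axis, bars are the SE) for the 29 members tested (y axis, in the order of roles used for the knockdown), in control and in SMARCA4 shRNA cells. The 1 filled point is PKM in control cells, at -0.32.

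The interaction, which is how far the response to the drugs in knockdown cells exceeds that in control cells, passed for 0 of 29 members with edgeR, DESeq2 and limma-voom, and 0 had an unadjusted p under 0.05. It passed for 0.0238% of all genes (0.00794% positive and 0.0159% negative). For PKM it was 0.16 (95% interval -0.01 to 0.34), for LDHA 0.11 (-0.05 to 0.27), for ENO1 0.03 (-0.12 to 0.19) and for SLC16A3 -0.28 (-0.88 to 0.32). For SLC2A3, the least precise, it was -1.32 (-2.64 to 0.00). These intervals bound how far the drug response of each gene could differ with SMARCA4 status in these libraries, and they do not show that the responses were alike.

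Other genes of glucose metabolism, from lists of 66 symbols of which 46 were tested, changed both ways with knockdown: 8 rose and 8 fell in DMSO, and 7 rose and 9 fell under the drugs. These 16 of 46 in each comparison lie near the 31.3% and 31.1% called among all genes, so they say nothing particular about these genes, and the counts of each list stand against the same shares. Among 17 further glycolysis and pentose phosphate genes, 3 rose and 3 fell in DMSO and 3 rose and 4 fell under the drugs. H6PD, a dehydrogenase of the endoplasmic reticulum, went from 13.4 ± 1.73 to 24.0 ± 2.04 CPM (SD, n = 3) in DMSO and from 12.3 ± 1.62 to 27.4 ± 2.78 CPM under the drugs. It rose by 0.83 (SE 0.12, adjusted p = 1.23e-06) and by 1.16 (SE 0.12, adjusted p = 6.55e-09). PGM1, which links glycogen to glucose phosphate, rose by 0.76 (SE 0.14) and by 1.03 (SE 0.15). SLC2A6, a lysosomal hexose transporter gene, fell by 0.43 (SE 0.10) and by 0.36 (SE 0.10). TKTL1, a transketolase-like gene, had counts of 18, 21 and 13 in control and 4, 5 and 3 in knockdown libraries under the drugs, and fell by 2.12 (SE 0.44, adjusted p = 0.000315). The low-count filter kept TKTL1 through control libraries, where it is higher, those under the drugs among them. Its fall therefore supports nothing about these genes as a group.

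Of 15 genes of pyruvate entry and gluconeogenesis tested, 1 rose and 4 fell in DMSO, and 2 rose and 3 fell under the drugs. PCK2, the mitochondrial enzyme that makes phosphoenolpyruvate, had 21.2 ± 1.40 against 12.1 ± 0.860 CPM (SD, n = 3) in DMSO and fell by 0.81 (SE 0.11, adjusted p = 3.60e-07). Under the drugs it stood at 24.2 ± 1.82 against 19.2 ± 0.979 CPM and fell by 0.33 (SE 0.10, adjusted p = 0.0140). That call ended without control replicate 3 (-0.28, adjusted p = 0.0696), without knockdown replicate 1 (-0.28, adjusted p = 0.0712) and with library totals (-0.25, adjusted p = 0.0636). MPC1, a subunit of the mitochondrial pyruvate carrier, fell by 0.66 (SE 0.11) in DMSO, from 21.9 ± 2.80 to 13.8 ± 0.875 CPM, and by 0.41 (SE 0.12) under the drugs, where the call ended without control replicate 3 (-0.33, adjusted p = 0.0570). Its partner subunit MPC2 rose by 0.24 (SE 0.07, adjusted p = 0.0140) under the drugs, a call lost without control replicate 2 (0.22, adjusted p = 0.0521) or knockdown replicate 1 (0.20, adjusted p = 0.0720). G6PC3, a glucose phosphatase, fell by 0.47 (SE 0.10) and by 0.41 (SE 0.12). GPD1, the cytosolic glycerol phosphate dehydrogenase, had counts of 16, 10 and 15 in control and 3, 9 and 5 in knockdown libraries in DMSO, and fell by 1.81 (SE 0.47, adjusted p = 0.00336). It missed the threshold without knockdown replicate 3 (-1.21, adjusted p = 0.0855). The low-count filter kept GPD1 only through control libraries, where it is high.

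Of 14 regulators of glucose metabolism tested, 4 rose and 1 fell in DMSO, and 2 rose and 2 fell under the drugs. ARNT, the partner of the hypoxia-inducible factors, rose by 0.50 (SE 0.08, adjusted p = 4.14e-06) in DMSO, from 39.2 ± 3.11 to 55.3 ± 0.885 CPM (SD, n = 3), and by 0.35 (SE 0.08) under the drugs. MLXIP, which encodes the glucose-sensing factor MondoA, rose by 0.42 (SE 0.08) and by 0.45 (SE 0.09). TXNIP, a glucose-induced inhibitor of glucose uptake, rose by 0.40 (SE 0.09, adjusted p = 0.00118) in DMSO. MAX, the partner of MYC, fell by 0.23 (SE 0.07) and by 0.27 (SE 0.07). Its DMSO call ended without control replicate 3 (-0.20, adjusted p = 0.0572) or knockdown replicate 1 (-0.20, adjusted p = 0.0583), and its call under the drugs ended without control replicate 1 (-0.19, adjusted p = 0.0652) or with library totals (-0.18, adjusted p = 0.0557). MYC, a transcription factor with many glycolytic targets, fell by 0.33 under the drugs (SE 0.12, adjusted p = 0.0259) with overlapping libraries. The MYC call was lost without control replicate 1 (-0.21, adjusted p = 0.221), knockdown replicate 1 (-0.34, adjusted p = 0.0535) or knockdown replicate 3 (-0.19, adjusted p = 0.230), with library totals (-0.25, adjusted p = 0.0989) and with DESeq2 (-0.33, adjusted p = 0.154).

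For the drugs themselves, 0 of these 46 genes passed in control cells with edgeR, and 2 had an unadjusted p under 0.05. The interaction also passed for 0 of the 46, where 0.0238% of all genes passed, and 4 had an unadjusted p under 0.05. A drug response that differs with SMARCA4 status is therefore not shown for any of them, nor is a like response. In knockdown cells PCK2 rose by 0.67 (SE 0.11, adjusted p = 0.000184), from 12.1 ± 0.860 to 19.2 ± 0.979 CPM (SD, n = 3). SLC16A7, which encodes the high-affinity pyruvate transporter MCT2, fell by 0.77 there (SE 0.19, adjusted p = 0.0362), from 6.80 ± 1.31 to 3.94 ± 0.672 CPM. That call was lost with DESeq2 (-0.78, adjusted p = 0.0760), with limma-voom (-0.74, adjusted p = 0.0600), in the fit of the 2 groups alone (-0.77, adjusted p = 0.0629), with the deepest library thinned (-0.77, adjusted p = 0.0570) and when any 1 of the 6 libraries compared other than the DMSO replicate 2 was left out, where the adjusted p ran from 0.0508 to 0.243.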

How the data were processed

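Libraries made with the Lexogen QuantSeq 3′ kit were processed by the authors with bcl2fastq 2.17.1.14, HISAT2 and HTSeq on hg19, per the submitters' processing notes. Other versions, the annotation release, the strand setting and filters were not given in the sources used here. Raw, unnormalized counts of 13820 genes in 12 libraries were deposited by the authors. Of the columns, 11 name shRNA, treatment and replicate. The remaining one gives no treatment, only the control shRNA and replicate 1. By elimination it was taken as the control library under the drugs.

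Genes were kept by edgeR's filterByExpr (minimum count 10, minimum total 15), which removed 1218. A quasi-likelihood model with TMM scaling and 1 coefficient per group was fitted to all 12 libraries (edgeR 4.0.16, R 4.3.3). Two-sided F tests were adjusted by Benjamini-Hochberg over 12602 genes, with a threshold of 0.05. The SE is the log2 fold change divided by the square root of F. No pair of replicates in a group agreed within sampling noise (chi-square per degree of freedom 1.85 or more). The pipeline was tested on simulated data. Members, gene lists and comparisons were chosen with earlier results of these data known. All members with a row are named. Of the other lists, up to 4 genes with the smallest adjusted p are named. Some genes of these lists are not reported here. Promoter sequences are RefSeq's in GRCh38.p14. Genes spanning a member's 3′ end come from GENCODE release 29 (GRCh38), matched by Ensembl identifier, and may differ from the authors' annotation. Alternatives used DESeq2 1.42.0, limma 3.58.1, other scalings and filters, fits of 2 groups, a replicate block, removal of ribosomal RNA rows, thinning of the deepest library and leaving out each library.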

Additional observations from a re-analysis of the deposited data

How the results depend on the processing

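Over 22 alternative settings, 3103 of 3145 member values kept their side of the threshold, 33 missed it and 9 newly passed it. Among values past the threshold in either fit, 0 reversed direction. Values past it in neither fit could change sign, as PDK1 did for knockdown in DMSO (-0.07, and up to 0.05 in the alternatives). The members called numbered 18 to 21 (knockdown in DMSO) and 16 to 19 (knockdown under the drugs) without single libraries, 1 to 3 for the drugs in control cells, 0 to 1 for the drugs in knockdown cells and 0 for the interaction. With library totals alone, 2 members passed for the drugs in control cells in place of 1. That scaling moved the split over all genes from 1860 higher and 2059 lower to 2691 and 1447 (knockdown under the drugs), from 93 and 70 to 74 and 85 (drugs in control cells) and from 93 and 69 to 132 and 53 (drugs in knockdown cells); the cause was not tested. Without single libraries the counts over all genes fell from 163 to as few as 106 (drugs in control cells, without control replicate 1 under the drugs) and from 162 to as few as 100 (drugs in knockdown cells, without knockdown replicate 3 in DMSO), with fewer libraries in the fit. With replicates blocked by their number, 20, 19, 1, 0 and 0 members passed in the 5 comparisons in that order, against 21, 19, 1, 0 and 0. HK1 in DMSO was the member past the threshold without the block alone (-0.35, adjusted p = 0.0515 with it). The labels do not say whether the numbers pair the samples, and weak correlations among 3 libraries per group cannot decide it. Deviations of libraries with the same number correlated at -0.116 to 0.0821. In DMSO each knockdown library correlated best with the control library of its own number (0.0268 to 0.0789). For the drugs in knockdown cells no library correlated best with its own number. Depth limits SLC2A3, PFKFB2 and PFKFB4 most, with at most 18 counts in a control library.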
